A study of Mus musculus and Rattus norvegicus with 96 samples.

Results

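The 10 genes around the transcription factor Nrf2 were followed in 4 count tables: Nqo1, Gclc, Gclm, Hmox1, Txnrd1, Srxn1, Slc7a11, Nfe2l2, Keap1 and Osgin1. These 10 members were chosen by symbol, with earlier results of these data known. They are 10 of 24543 genes in the mouse liver table, of which 18992 had a count, and the same symbols were looked up in 3 further tables (AML12 cells, rat lung, rat liver), for 96 libraries overall. In mouse liver all 10 had counts and 9 passed the filter on low counts, since Slc7a11 held 46 counts over the 48 libraries.

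Nrf2, encoded by Nfe2l2, is held in the cytoplasm by Keap1, which hands it to a ubiquitin ligase for degradation. When electrophiles or oxidants modify cysteines of Keap1, Nrf2 accumulates, enters the nucleus, pairs with a small Maf protein and binds the antioxidant response element of its target genes. In liver these targets synthesise glutathione, reduce thioredoxin and peroxiredoxins, degrade heme, and detoxify quinones and other reactive compounds.

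Mouse liver came from male B6C3F1 mice aged 10 to 11 weeks. For 7 days 6 of the animals drank water with 600 ppm of phenobarbital (PB), a liver enzyme inducer, and the other 6 drank plain water (Con). Each of the 12 livers was prepared in 4 ways, which gave 8 groups of n = 6: frozen (FR), placed in 10% neutral buffered formalin directly (FFPE), frozen before fixation in formalin (FR > FFPE), and frozen before fixation in 70% ethanol (FR > OH), the last 3 embedded in paraffin. By the labels, fixation in formalin lasted 18 to 24 h in FFPE and in FR > FFPE. RNA of the embedded tissue was extracted with another kit than that of FR, so preparation and extraction cannot be told apart in any comparison with FR. Rat liver (male F344) and rat lung (male WKY) came from vehicle control animals and were measured with TempO-Seq, an assay that counts ligated probes for a panel of genes, in 6 labelled libraries per group. Rat liver was FR, FR > FFPE or FFPE, and rat lung was FR, FR > FFPE or fixed directly for 1 year. The other fixed rat groups were in 10% neutral buffered formalin for 18 to 24 h, as in the mouse. AML12, a single hepatocyte line derived from a CD-1 mouse, was exposed for 10 min to 0.006%, 0.03% or 0.1% formalin or to phosphate buffered saline, with 3 lysates per group. Nothing in the labels ties rat or AML12 libraries of a group to separate donors or cultures, so p-values for AML12 measure the spread between lysates only.

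Mouse libraries held 4952797 to 13702672 counts, with the lowest median total in FFPE. The PB label was checked with Cyp2b10, a cytochrome P450 that PB induces, which was at most 2.45 CPM (a count scaled to 1e+06 counts in the library) in Con and at least 1078 CPM in PB. All 5 hepatocyte markers were detected in mouse liver. In rat lung all 5 lung epithelium markers, Sftpc, Sftpb, Scgb1a1, Ager and Aqp5, were at 0 in every library, as they were in rat liver. These 5 markers therefore gave no check of the lung label. AML12 had Ttr and Apoa1 but Alb, Cps1 and Serpina1c at 0. Of the genes listed for AML12, 2749 of 24540 had any count, with 2738 of 28756 in rat liver and 2851 of 28760 in rat lung. The probe set is not given, so in TempO-Seq a gene at 0 throughout may have had no probe. One frozen rat lung library held 12 counts and was left out of the rat lung fit (n = 5).

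Promoter windows of the 3 members that rose with PB most often are shown first, since the responses of Nqo1, Srxn1 and Gclm are what the mouse liver results turn on. Windows run from 250 bases before to 50 bases after the transcription start (RefSeq, GRCm38.p6, strand of the gene), and capitals mark matches to TGACNNNGC, the core of the antioxidant response element, or to TGAGNNNGC, a variant searched only after the sequences had been read. Both strands were searched.
Srxn1, chr2:152105274-152105573, plus strand: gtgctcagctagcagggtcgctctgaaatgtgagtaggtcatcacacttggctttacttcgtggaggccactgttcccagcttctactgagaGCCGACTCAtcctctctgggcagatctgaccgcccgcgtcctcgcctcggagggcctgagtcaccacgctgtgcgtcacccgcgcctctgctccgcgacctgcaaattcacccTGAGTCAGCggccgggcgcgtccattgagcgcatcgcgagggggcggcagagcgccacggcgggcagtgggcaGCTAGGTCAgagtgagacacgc
Gclm, chr3:122245307-122245606, plus strand: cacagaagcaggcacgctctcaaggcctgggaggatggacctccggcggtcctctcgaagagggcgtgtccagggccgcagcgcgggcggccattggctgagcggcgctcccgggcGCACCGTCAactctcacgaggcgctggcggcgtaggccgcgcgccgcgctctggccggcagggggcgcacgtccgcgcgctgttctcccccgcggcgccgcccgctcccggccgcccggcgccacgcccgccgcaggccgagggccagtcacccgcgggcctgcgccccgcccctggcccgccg
Nqo1, chr8:107403156-107403455, minus strand: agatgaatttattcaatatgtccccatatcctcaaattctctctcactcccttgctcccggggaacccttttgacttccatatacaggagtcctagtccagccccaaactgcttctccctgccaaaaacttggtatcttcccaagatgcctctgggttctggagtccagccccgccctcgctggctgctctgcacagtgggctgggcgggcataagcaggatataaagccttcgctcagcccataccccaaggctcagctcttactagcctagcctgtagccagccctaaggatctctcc

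The core TGACNNNGC was found in Srxn1 at position 29 after the start and in Gclm at position -134, both on the minus strand, while the Nqo1 window held none. Sequence beyond the windows was not searched, so a gene without a match may hold the element elsewhere. TGAGNNNGC was found in Srxn1 at -45 on the plus strand and at -158 on the minus strand. Of the other members, Nfe2l2 held the core at -240 and Txnrd1 at -92 in 1 of its 3 windows, and Slc7a11 (-97) and Osgin1 (-99) held the variant. Keap1 held neither, and TGACTCAGC, a consensus form of the core, was in no member's window. Over all 32851 windows, 12.4% held TGACNNNGC, 17.6% TGAGNNNGC and 0.454% TGACTCAGC, so the first 2 are found in many promoters. Of the 10 members, 8 had a window in the RefSeq table, Gclc and Hmox1 being the others.

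The 10 genes lie on 5 autosomes of GRCm38, and their counts are summed over exons. Nqo1 (chr8:107388225-107403206), Hmox1 (chr8:75093618-75100594) and Osgin1 (chr8:119437162-119446257) share chromosome 8. Gclm (chr3:122245557-122267216) and Slc7a11 (chr3:50364936-50443614) lie on chromosome 3, Nfe2l2 (chr2:75675513-75704664) and Srxn1 (chr2:152105524-152111377) on chromosome 2, and Gclc (chr9:77754535-77794490) and Keap1 (chr9:21229730-21239333) on chromosome 9. Txnrd1 (chr10:82833951-82897725) is on chromosome 10.

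Compared per kilobase of exon in FR Con (CPM per kb, mean ± SD, n = 6), Gclc, the catalytic subunit of glutamate-cysteine ligase that limits glutathione synthesis, was highest at 64.1 ± 14.4. Osgin1, an oxidative stress induced growth inhibitor, followed at 52.5 ± 8.92. Gclm, the modifier subunit of the same ligase, was at 17.5 ± 1.14 and Txnrd1, the cytosolic thioredoxin reductase, at 16.7 ± 0.997. Each of these neighbouring pairs differed by less than its spread. Nfe2l2 itself (12.9 ± 2.77), Srxn1 (10.8 ± 0.63), Hmox1 (9.46 ± 1.64) and Keap1 (7.92 ± 0.556) formed a lower group whose neighbours also lay within their spread. Nqo1, the quinone reductase often used as the reporter of Nrf2 activity, was at 1.15 ± 0.407, below every other tested member. Slc7a11, the cystine carrier that feeds glutathione synthesis, was at 0.0067 CPM per kb and held no more than 5 counts in any mouse library.

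Whether PB raised these genes, and whether each preparation showed the same rise, is the comparison of PB with Con within a preparation. Srxn1, Nqo1 and Gclm rose with PB, Srxn1 and Gclm in all 4 preparations and Nqo1 in 3, and no member fell in any. On the log2 scale Srxn1 rose by 0.92 to 1.17, Nqo1 by 1.19 to 1.69 where it passed, and Gclm by 0.23 to 0.33. Of the 9 members tested, FR had 3 that passed (adjusted p under 0.05), where 5.86% of all 13370 genes tested rose. FFPE had 2 (4.64% of all genes rose), FR > FFPE had 5 (6.24%) and FR > OH had 4 (8.43%). With a fold of at least 2 as a further criterion the counts, in that order, were 2, 0, 2 and 1. The spread behind these p-values was taken over all 48 libraries as if independent, although 12 mice gave 4 libraries each. Of the 5 hepatocyte markers, 0 fell with PB in FR, 0 in FFPE, 2 after FR > FFPE and 1 after FR > OH, and the part of hepatocyte RNA in the member counts was not tested.

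Srxn1, sulfiredoxin, which reactivates over-oxidised peroxiredoxins, had the clearest response. In FR it was at 28.5, 30.4 and 32.5 CPM (lowest, median and highest of 6) in Con and at 48.1, 62.5 and 83.5 CPM in PB. In FFPE the Con libraries were at 37.9, 38.9 and 49.1 CPM and the PB libraries at 51.6, 75.5 and 103 CPM. Every PB library was above every Con library in both, and the same held in the other preparations. FR > FFPE had 32.7, 35.9 and 41.8 CPM in Con against 65.2, 78.4 and 116 CPM in PB. FR > OH had 31.8, 38.5 and 44.5 CPM in Con against 58.7, 74.6 and 101 CPM in PB. By edgeR the FR libraries gave a log2 fold change of 1.06 (SE 0.14, adjusted p = 3.98e-07) and the FFPE libraries 0.92 (SE 0.15, adjusted p = 1.43e-05). It was 1.17 (SE 0.14, adjusted p = 4.67e-08) for FR > FFPE and 0.998 (SE 0.14, adjusted p = 1.33e-06) for FR > OH.

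Nqo1 was a low gene, with 4 to 94 counts per library. In FR it was at 1.34, 1.49 and 2.95 CPM in Con and at 2.39, 3.56 and 6.55 CPM in PB, and the groups overlapped. In FFPE it was at 0.958, 1.35 and 1.97 CPM in Con and at 2.31, 3.02 and 5.03 CPM in PB, with no overlap. FR > FFPE had 0.567, 1.42 and 2.71 CPM in Con and 1.69, 2.71 and 9.46 CPM in PB, where the highest library was mouse 20B. FR > OH had 0.461, 1.45 and 1.76 CPM in Con and 1.94, 4.10 and 7.97 CPM in PB, without overlap. Log2 fold changes were 1.19 (SE 0.35, edgeR adjusted p = 0.0227) in FR, where the call was lost with limma on the deposited log2 CPM (adjusted p = 0.0666), 1.46 (SE 0.37, adjusted p = 0.00857) in FR > FFPE and 1.69 (SE 0.38, adjusted p = 0.0014) in FR > OH. In FFPE the value was 1.25 (SE 0.42, adjusted p = 0.0651), which did not pass, but it passed with DESeq2 (adjusted p = 0.0422) and with limma (adjusted p = 0.0353).

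Gclm had narrow groups. FR Con libraries were at 101, 110 and 123 CPM and FR PB libraries at 121, 128 and 140 CPM, overlapping only at their edges. FFPE libraries were lower in both treatments, at 84.7, 87.7 and 95.3 CPM in Con and 92.1, 107 and 124 CPM in PB. In FR > FFPE (104, 114 and 125 CPM in Con, 138, 142 and 151 CPM in PB) and FR > OH (94.4, 104 and 113 CPM in Con, 115, 131 and 141 CPM in PB) the treatments did not overlap. Its log2 fold change rested on an SE of 0.06 throughout. FR gave 0.23 (edgeR adjusted p = 0.0112), FFPE gave 0.26 (adjusted p = 0.00753), FR > FFPE gave 0.31 (adjusted p = 0.000518) and FR > OH gave 0.33 (adjusted p = 0.000184). In FR the call was lost under total reads as library size (adjusted p = 0.054) and with limma (adjusted p = 0.0689).

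**Figure D1:**
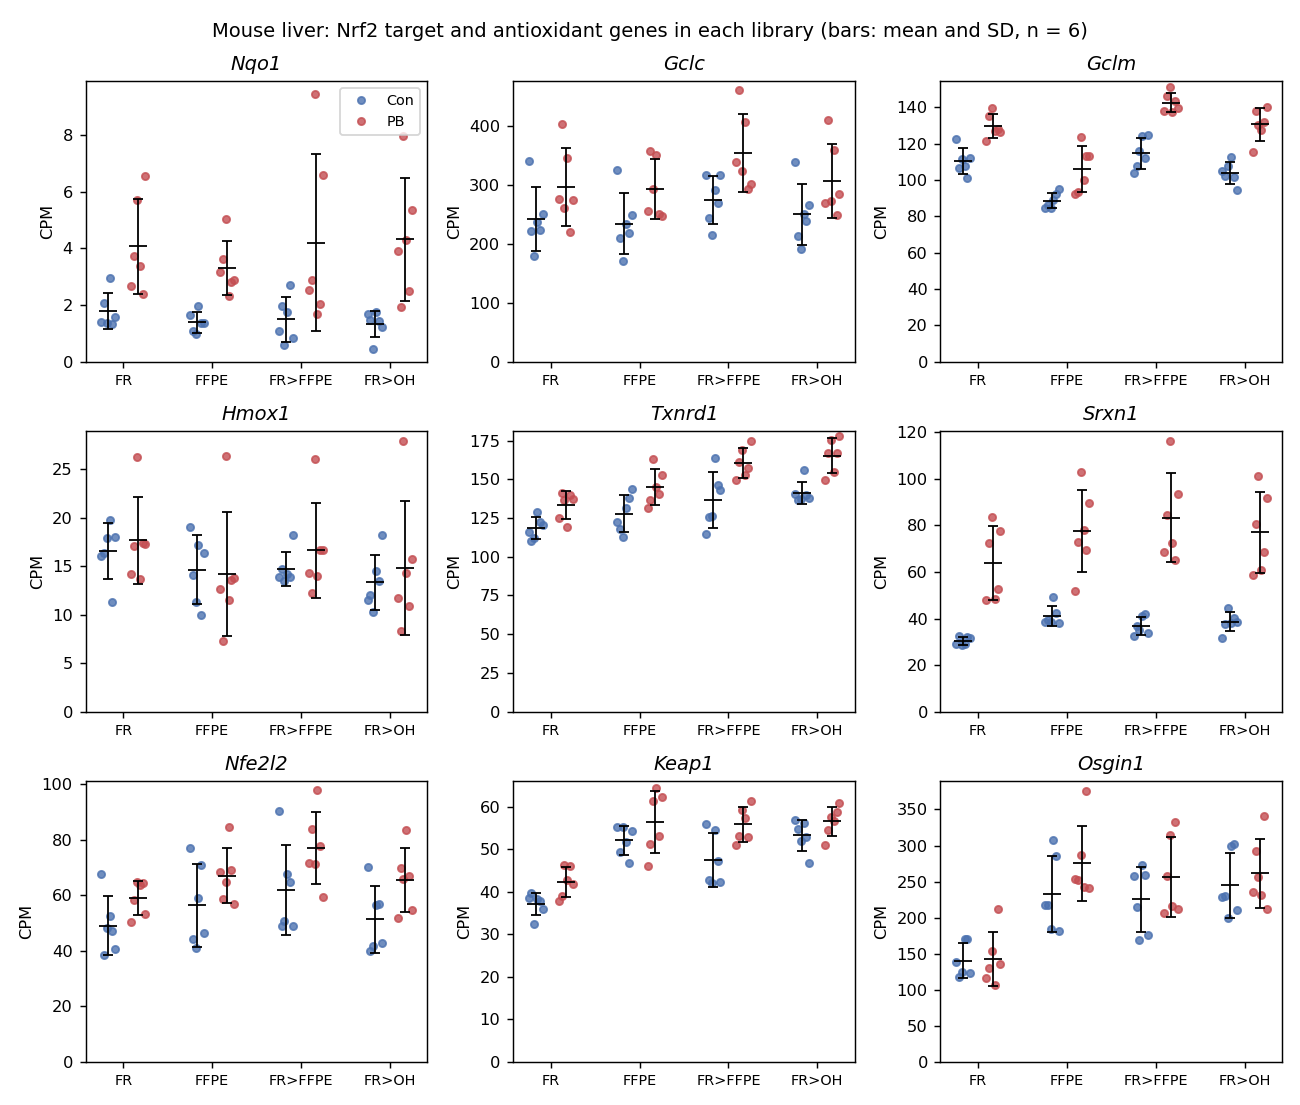
CPM (linear axes from 0) of 9 members in mouse liver by preparation, 1 point per library, Con in blue and PB in red, with bars for the mean and SD of 6. The Srxn1 PB libraries lie above all Con libraries in each preparation, from 48.1 against 32.5 CPM in FR to 51.6 against 49.1 CPM in FFPE.

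Sequencing lane, as the labels give it, followed the groups closely. In FR > FFPE all 6 Con libraries were in lane 3 and all 6 PB libraries in lane 4, so lane and PB cannot be told apart there. FR Con was in lane 2 with 2 of the 6 PB libraries, FFPE Con in lane 1 with 4 of the 6 PB libraries, and 3 of the 6 FR > OH Con libraries shared lane 5 with all 6 PB libraries. A lane term, chosen after seeing the data, was fitted to FR and FFPE libraries together and to FR > OH libraries alone. These fits held fewer libraries than the main fit and were not repeated without lane. The lane term and the smaller fit therefore cannot be told apart in a lost call. With lane as a term, Srxn1 still passed in FR (log2 0.98, edgeR adjusted p = 0.00383), FFPE (0.90, adjusted p = 0.000913) and FR > OH (0.98, adjusted p = 0.00693). Gclm kept its size but lost the call in FR (0.22, adjusted p = 0.323), FFPE (0.21, adjusted p = 0.166) and FR > OH (0.35, adjusted p = 0.0584). Nqo1 lost it in FR (0.83, adjusted p = 0.285) and FR > OH (1.56, adjusted p = 0.102) and gained it in FFPE (1.35, adjusted p = 0.0198).

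Txnrd1 passed only in the preparations frozen before fixation. FR > FFPE Con libraries ran from 114 to 164 CPM (median 135) and PB libraries from 149 to 174 CPM (median 159), which is 0.23 on the log2 scale (SE 0.07, edgeR adjusted p = 0.0306), a call that was lost without Con mouse 21C (0.19, adjusted p = 0.114) and under TMM scaling (0.17, adjusted p = 0.238). In FR > OH it was 0.23 (SE 0.07, adjusted p = 0.0261), lost under TMM scaling (adjusted p = 0.0723) and with the lane term (adjusted p = 0.321). In FR and FFPE the values were close to these, 0.17 (adjusted p = 0.127) and 0.18 (adjusted p = 0.12), and no difference between preparations was shown. Keap1 passed in FR > FFPE alone, at 0.24 (SE 0.08, adjusted p = 0.0493), and lost the call under TMM scaling (adjusted p = 0.211), total reads (adjusted p = 0.0819) and with no filter (adjusted p = 0.0725). Its values elsewhere were 0.19 (FR), 0.12 (FFPE) and 0.09 (FR > OH).

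The remaining members did not pass in any preparation. Gclc was higher in PB by 0.29 to 0.36 on the log2 scale, with a standard error of 0.16 and adjusted p of at least 0.173. Nfe2l2 was higher by 0.25 to 0.35 (adjusted p of at least 0.149) and passed only in FR > OH under total reads (0.45, adjusted p = 0.0444) and with limma (0.46, adjusted p = 0.0465). Hmox1, the inducible heme oxygenase, differed by -0.04 to 0.17 and Osgin1 by 0.02 to 0.25. For Hmox1 in FR the 95% interval of the log2 difference was -0.32 to 0.51, which holds both 0 and a difference as large as that of Gclm.

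Whether the PB response itself differed between preparations was tested as an interaction against FR. Without the mouse as a block, none of the 27 member values passed, and none reached an unadjusted p of 0.05. By edgeR the share of all genes called was 0% in each of the 3 tests, while 463 (FFPE), 288 (FR > FFPE) and 305 (FR > OH) genes had an unadjusted p under 0.05. The differences ran from -0.14 for Srxn1 in FFPE (95% interval -0.54 to 0.26) to 0.51 for Nqo1 in FR > OH (95% interval -0.50 to 1.52). The interval for Nqo1 was wide enough to hold a response up to 1.52 log2 units larger than in FR. For Gclm the 3 differences lay between 0.02 and 0.10, with standard errors of 0.09. These intervals come from the fit without the block. With the mouse as a block 0 members passed as well, and the values furthest from 0 in units of their error were those of Osgin1, at 0.25 (SE 0.08, adjusted p = 0.374) in FFPE and 0.18 (SE 0.08, adjusted p = 0.53) in FR > FFPE.

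**Figure D2:**
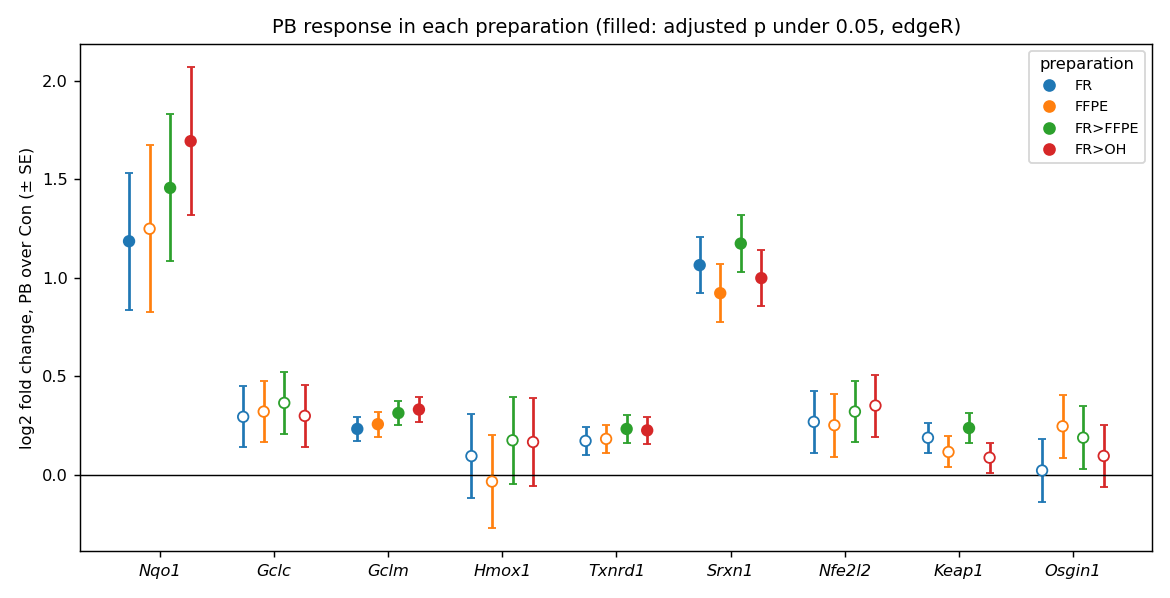
Log2 fold change of PB over Con for 9 members in each preparation, with bars of 1 SE from the edgeR fit and filled points where the adjusted p was under 0.05. Srxn1 lies between 0.92 and 1.17 and Gclm between 0.23 and 0.33 in all 4 preparations, while Nqo1 has the longest bars.

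The same mice tended to be high or low in every preparation. For Gclc, Con mouse 21C was highest and 8A lowest in all 4 preparations, at 341 and 178 CPM in FR, and 18D was highest among PB mice in all 4. The SD between mice was 0.27 log2 units for Gclc. The SD within a mouse, left after the mean of each preparation had been removed, was 0.08. Nfe2l2 was also highest in 21C among Con mice in all 4 (0.26 between mice, 0.12 within). Mouse 20B had the highest Srxn1 and Hmox1 of the PB mice in all 4 preparations, and the highest Nqo1 in 3. Osgin1 was highest in PB mouse 75C and Keap1 lowest in PB mouse 18B in all 4. For Gclm, by contrast, the SD between mice was 0.06 and the SD within a mouse, by the same measure, was 0.09.

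Hmox1 in mouse 20B was 26.3 CPM in FR, 26.3 CPM in FFPE, 26.1 CPM in FR > FFPE and 27.9 CPM in FR > OH, against medians of 17.2, 13.1, 15.5 and 13 CPM for its groups. The sum of 8 Kupffer cell and macrophage markers (all 8 detected) was also highest in 20B in each PB group, at 650 CPM in FR. The other FR PB libraries ran from 309 to 581 CPM, and mouse 80B, at 581 CPM, had Hmox1 at 17.3 CPM. Among Con mice the order of the marker sum and that of Hmox1 differed, with 21C lowest for the marker sum in all 4 preparations but highest for Hmox1 in FFPE. None of the 8 markers passed in PB vs. Con in any preparation. The part of these cells in Hmox1 was not tested. In bulk tissue, fewer cells of a type and less RNA per cell cannot be told apart.

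By the correlation of log2 CPM over the 48 libraries, which share mice, treatment and depth, the genes most like Srxn1 were Sgpl1 (r = 0.948), Entpd5 (r = 0.944) and Gstm4 (r = 0.930). Those most like Nqo1 were Nup205 (r = 0.864), Gstm2 (r = 0.846) and Kif2c (r = 0.843), and those most like Gclc were Abcd3 (r = 0.835), Gm4952 (r = 0.829) and Corin (r = 0.826). Hmox1 was followed most closely, at lower values, by Cd86 (r = 0.674), Msr1 (r = 0.668) and Fcgr4 (r = 0.663), which are genes of macrophages.

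The wider pathway was read from a list of 57 other genes, 53 of them tested in mouse liver. The list was chosen with earlier results of these data known, so a larger share than that of all genes is no independent evidence. With PB, 30 of them rose in FR libraries, and FFPE had 26, FR > FFPE 28 and FR > OH 34 that rose. Of all genes tested, 5.86%, 4.64%, 6.24% and 8.43% rose, in the same order of preparations. The only gene of the list to fall was 1 in FFPE. The list's median log2 fold change, in that order, was 0.46, 0.31, 0.38 and 0.46, against 0.00, 0.01, 0.06 and 0.02 over all genes tested. Of 15 glutathione genes 12, 11, 12 and 13 rose, of 11 thioredoxin and peroxide genes 5, 4, 4 and 7, and of 9 genes of detoxification and export 7, 6, 6 and 8. The paper reports predicted activation of the constitutive androstane and pregnane X receptors with PB in every preparation. Which regulator raised the genes of this list was not tested. Of the 8 regulators and partners of Nrf2, such as the small Maf genes, Bach1 and Cul3, 1 rose in FR and 0 in each other preparation, and Maff, a small Maf gene, fell in FFPE (log2 -1.46, edgeR adjusted p = 0.0384, 0 to 19 counts per library).

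Gstm3, a glutathione S-transferase, went from 7.01, 9.93 and 16.4 CPM in FR Con to 354, 636 and 1186 CPM in FR PB, with a log2 change of 6.14 (SE 0.40, edgeR adjusted p = 1.84e-16). The fixed preparations gave 5.91 (FFPE), 5.90 (FR > FFPE) and 6.51 (FR > OH). Abcc3, an exporter of conjugates, rose by 3.26 (FR), 3.40 (FFPE) and 3.31 (FR > FFPE). Gsta1 had 0 to 12 counts in FR Con libraries and 35 to 548 in FR PB libraries, so its fitted log2 change of 6.36 depends on the prior count and is no bound. Gsta and Gstm genes have near-identical paralogs between which the counting could split reads, so their separate values are uncertain. Gstm3 and Abcc3 moved by more than any of the 9 members tested, whose largest value was 1.69 for Nqo1 in FR > OH.

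How the members differed between preparations was compared in Con and in PB mice separately, and a member was counted only if it passed in both in the same direction. On the scale of counts on genes, FFPE vs. FR had Keap1 and Osgin1 higher and Gclm lower. FR > FFPE vs. FR and FR > OH vs. FR each had Txnrd1, Keap1 and Osgin1 higher and no member lower. These directions depend on the divisor. The divisor recovered from the deposited log2 CPM was taken as total reads. Counts on genes were 46.6% to 51.8% of it in FR and 34.1% to 44.9% in FR > OH. They were 31.7% to 40.5% in FR > FFPE and 21.4% to 27.5% in FFPE. The median log2 difference of all genes between FFPE and FR was 0.32 in Con and 0.32 in PB, and under total reads -0.64 and -0.62. That of FR > FFPE was 0.30 and 0.38 and that of FR > OH was 0.17 and 0.19.

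Of all genes, 39.5% passed as higher and 11.7% as lower in FFPE vs. FR, 38.7% and 4.94% in FR > FFPE vs. FR, and 25.8% and 6.02% in FR > OH vs. FR. The members that were higher, 2, 3 and 3 of 9, are to be read against those shares. In FFPE vs. FR > FFPE both were extracted with the same kit. On the scale of counts on genes, 2.48% of genes passed as higher and 5.70% as lower there, with Gclm as the only member. This depends on the divisor too. Under total reads the median of all genes in that comparison was -0.57 in Con and -0.60 in PB, and more members passed. In FR > FFPE vs. FR > OH, on the scale of counts on genes, 2.60% passed in either direction and no member did.

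Osgin1 was the member furthest above FR in every preparation. FR libraries were at 118, 131 and 170 CPM in Con and 106, 133 and 212 CPM in PB. FFPE libraries were at 182, 218 and 308 CPM in Con and 241, 252 and 376 CPM in PB, above the FR groups without overlap. FR > FFPE had 169, 237 and 274 CPM in Con and 207, 237 and 333 CPM in PB, and FR > OH had 199, 229 and 301 CPM in Con and 212, 246 and 341 CPM in PB. It was higher than FR in 12 of 12 mice in each. The log2 difference of FFPE from FR was 0.73 (edgeR adjusted p = 0.000145) in Con and 0.95 (adjusted p = 1.89e-06) in PB. FR > FFPE gave 0.68 and 0.85, and FR > OH gave 0.80 and 0.88. Relative to the median of all genes the differences were 0.38 to 0.68, but under total reads FFPE vs. FR was -0.25 in Con and 0.01 in PB.

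Keap1 was higher than FR in 12 of 12 mice in each preparation. It was at 32.5, 38.1 and 39.8 CPM in FR Con and 37.8, 42.3 and 46.4 CPM in FR PB. FFPE libraries had 46.8, 53 and 55.4 CPM in Con and 46.1, 57.3 and 64.5 CPM in PB, with overlap only in PB. The log2 difference of FFPE from FR was 0.49 in Con and 0.41 in PB. FR > FFPE gave 0.35 and 0.40 and FR > OH gave 0.52 and 0.42, of which 0.02 to 0.35 remained relative to the median of all genes. Under total reads Keap1 was lower in FFPE than in FR, at -0.48 in Con and -0.52 in PB.

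On the scale of counts on genes and without the mouse block, Gclm was the only member that passed between FFPE and FR > FFPE. Against FR it was lower in FFPE in 12 of 12 mice, at -0.31 in Con (SE 0.06, edgeR adjusted p = 3.86e-05) and -0.29 in PB (SE 0.06, adjusted p = 0.000105). Against FR > FFPE it was lower in 12 of 12 mice as well, at -0.37 (adjusted p = 5.5e-05) and -0.43 (adjusted p = 4.43e-06), and the groups did not overlap. FFPE libraries were in lanes 1 and 2 and FR > FFPE libraries in lanes 3 and 4, so lane and preparation cannot be told apart there. In FR > FFPE vs. FR it was near 0, at 0.06 and 0.14, and in FR > OH vs. FR at -0.09 and 0.01. Relative to the median of all genes Gclm was lower than FR in all 3, with FFPE at -0.63 and -0.61, FR > FFPE at -0.24 and -0.24 and FR > OH at -0.26 and -0.18. Under TMM scaling Gclm passed as lower in FR > FFPE too (-0.22 and -0.20), and in FR > OH (-0.26 and -0.18). With lane as a term, in FFPE and FR libraries alone, the difference of FFPE from FR was -0.17 (adjusted p = 0.335) and -0.18 (adjusted p = 0.259), while Osgin1 (0.98 and 1.32) and Keap1 (0.54 and 0.59) still passed. Lane 2 was the one lane with libraries of both preparations, 2 of FFPE (PB) and 8 of FR.

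Txnrd1 was higher than FR by 0.21 and 0.27 in FR > FFPE and by 0.26 and 0.31 in FR > OH, and by 0.11 and 0.12 in FFPE, where it did not pass. Relative to the median of all genes these became -0.09 and -0.11, 0.08 and 0.12, and -0.21 and -0.20. Srxn1 was higher than FR in 12 of 12 mice in each preparation, by 0.27 to 0.42, but passed in Con only for FFPE (0.42, edgeR adjusted p = 0.013) and in PB only for FR > FFPE (0.39, adjusted p = 0.0178). Nfe2l2 was higher by 0.07 to 0.38, Gclc differed by -0.05 to 0.26, Hmox1 by -0.31 to -0.09 and Nqo1 by -0.40 to 0.10.

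Each liver gave all 4 preparations, and with the mouse as a block more members passed. FFPE vs. FR then had 6, with Txnrd1 (0.11 and 0.12), Srxn1 (0.42 and 0.29) and Nfe2l2 (0.19 and 0.18) added as higher. FR > FFPE vs. FR had 6, adding Gclc (0.20 and 0.26), Srxn1 (0.27 and 0.39) and Nfe2l2 (0.32 and 0.37). FR > OH vs. FR had 5, adding Srxn1 (0.33 and 0.28) as higher and Hmox1 (-0.31 and -0.29) as lower. Within the block FFPE vs. FR > FFPE had 2, Gclc being lower at -0.25 and -0.27 beside Gclm, and FR > FFPE vs. FR > OH had 2, Gclc (0.15 and 0.21) and Nfe2l2 (0.26 and 0.24). In the blocked fit Hmox1 did not pass in both treatments of FFPE vs. FR, at -0.18 (adjusted p = 0.187) in Con and -0.34 (adjusted p = 0.0106) in PB. Of the 8 macrophage markers, 5 fell in FFPE vs. FR, 2 in FR > FFPE vs. FR and 4 in FR > OH vs. FR, without the block. Their sum in Con was 275 to 481 CPM for FR, 184 to 322 CPM for FFPE, 225 to 413 CPM for FR > FFPE and 160 to 405 CPM for FR > OH. In FR > OH vs. FR 5 of the 6 endothelial markers fell too. The part of either cell type in Hmox1 was not tested.

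**Figure D3:**
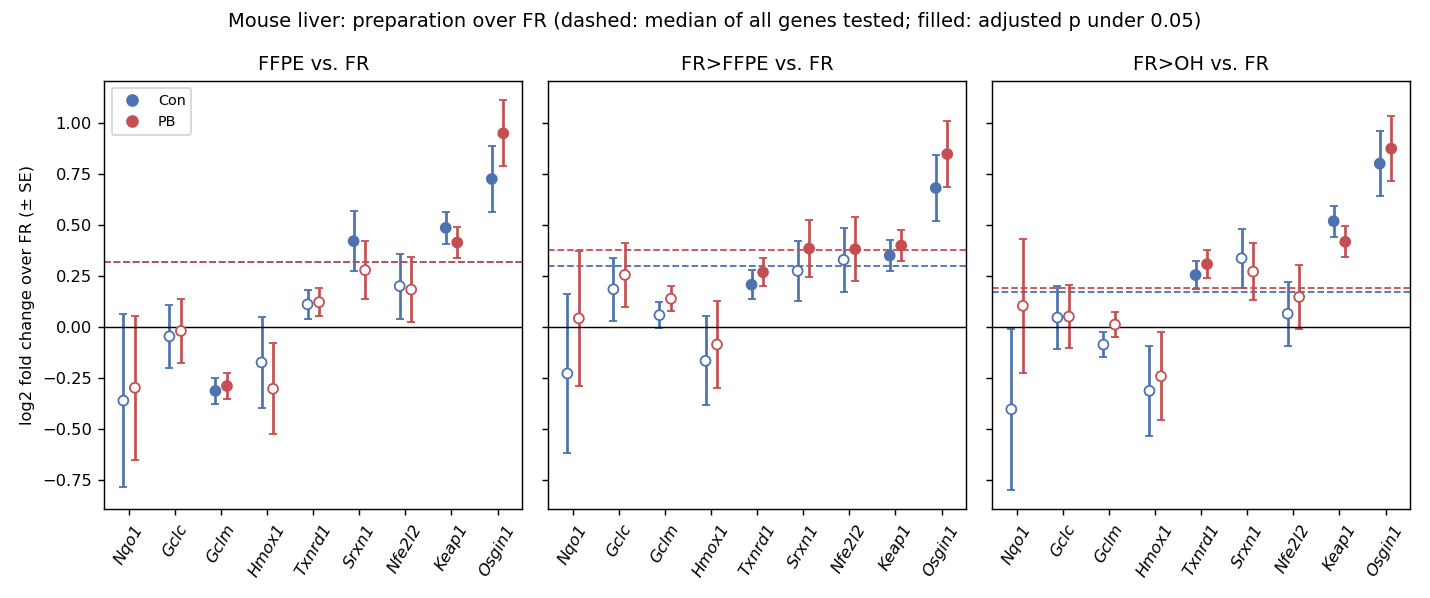
Log2 fold change over FR of 9 members in FFPE, FR > FFPE and FR > OH on the scale of counts on genes, in Con (blue) and PB (red), with bars of 1 SE, filled points where the adjusted p was under 0.05 and dashed lines at the median of all genes. Osgin1 lies above the dashed lines in all 3 panels and Gclm below them, but under total reads Osgin1 in FFPE was at -0.25 (Con) and 0.01 (PB).

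All 5 hepatocyte markers were lower in FFPE than in FR, 3 of 5 in FR > FFPE and 2 of 5 in FR > OH. Among the 53 pathway genes, 8 were higher and 22 lower in FFPE vs. FR, 9 and 18 in FR > FFPE vs. FR, and 6 and 16 in FR > OH vs. FR, with a list median of -0.29, -0.18 and -0.20 against 0.32, 0.34 and 0.18 over all genes. Of the 8 regulators 4, 5 and 4 were higher and none lower, with a median of 0.50, 0.48 and 0.36. Of all genes, 39.5%, 38.7% and 25.8% were higher and 11.7%, 4.94% and 6.02% lower. These counts are on the scale of counts on genes, and the list was not recounted under total reads, where the median of all genes lay lower. Mafg, a small Maf partner of Nrf2, was at 14, 15.7 and 19.9 CPM in FR Con and 33.0, 40.9 and 46.2 CPM in FFPE Con, which is 1.34 on the log2 scale (SE 0.11, edgeR adjusted p = 1.53e-13), with 1.54 in PB. It was higher by 1.16 and 1.32 in FR > FFPE and by 1.05 and 1.07 in FR > OH.

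Mafk was higher than FR in all 3 as well (0.73 and 0.83 in FFPE, 0.54 and 0.59 in FR > FFPE, 0.66 and 0.60 in FR > OH), as was Bach1, a repressor at the same element, in FR > FFPE (0.49 and 0.60). On the other side, Txn1, cytosolic thioredoxin, the substrate of Txnrd1, was at 91.8, 97.9 and 101 CPM in FR Con and 33.8, 35.4 and 44.1 CPM in FFPE Con, which is -1.38 on the log2 scale (SE 0.098, adjusted p = 6.12e-16). Mgst1, a microsomal glutathione transferase, was lower in FFPE by -1.15 and -1.21, and Taldo1, a source of NADPH precursors, by -1.03 and -1.17. Txn2, the mitochondrial thioredoxin, was higher in FFPE by 0.80 and 0.76, so the cytosolic and mitochondrial genes differed in direction on this scale. In FFPE vs. FR > FFPE, 2 of the 53 were higher and 9 lower (2.48% and 5.70% of all genes), with Txn1 at -0.95 and -0.80 and Txn2 at 0.30 and 0.27.

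In rat liver 8 of 10 members had counts, and 7 passed the filter. Srxn1 and Slc7a11 were at 0 in all 18 libraries, which does not by itself show that they were not expressed, and Keap1 had 24 counts in all. Totals were 3040915 to 3970187 counts in FR, 2156625 to 3898088 in FR > FFPE and 139475 to 889128 in FFPE. Frozen tissue was run as extracted RNA and fixed tissue as lysate, so preservation and input cannot be told apart in a comparison with FR. TMM scaling, the setting used for the counts of members below, and total counts gave different levels, with a median of all genes for FR > FFPE and FFPE of 0.37 and 0.35 under TMM against 1.08 and 1.97 under total counts. Values of the members are therefore given on both.

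Nqo1 was higher in fixed rat liver on both scales. It was at 7.18, 11.7 and 13.6 CPM in FR, 65.4, 87 and 115 CPM in FR > FFPE and 85.5, 87.7 and 109 CPM in FFPE, and FR did not overlap with either. FR > FFPE vs. FR was 2.33 (SE 0.22, edgeR adjusted p = 7.33e-09) under TMM and 3.02 under total counts. FFPE vs. FR was 1.49 (SE 0.23, adjusted p = 2.31e-06) and 3.07.

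Nfe2l2 was lower on both scales. It was at 469, 574 and 629 CPM in FR, 173, 276 and 480 CPM in FR > FFPE and 256, 401 and 483 CPM in FFPE, with overlap only at the lowest FR libraries. The differences from FR were -1.68 (SE 0.23, edgeR adjusted p = 6.65e-07) for FR > FFPE and -2.19 (SE 0.23, adjusted p = 5.71e-09) for FFPE under TMM, and -0.95 and -0.56 under total counts.

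The other 5 depended on the scale. Gclc, Gclm, Hmox1 and Txnrd1 were lower in FR > FFPE under TMM (-0.79, -1.79, -1.28 and -1.56), and under total counts Gclm (-1.04) and Txnrd1 (-0.81) still passed while Gclc (-0.07) and Hmox1 (-0.56) did not. In FFPE vs. FR the same 4 were lower under TMM (-1.67, -1.39, -1.18 and -1.51) but Gclc was at -0.03, Gclm at 0.19, Hmox1 at 0.46 and Txnrd1 at 0.08 under total counts, and none of these passed. Gclm in FR > FFPE was at 5.20, 10.6 and 26.9 CPM and in FFPE at 23.4, 26.7 and 43.0 CPM (6 to 23 counts), against 19.1, 26.0 and 27.6 CPM in FR. Osgin1 was at 22.5, 46.8 and 95.0 CPM in FR, 63.9, 106 and 267 CPM in FR > FFPE and 102, 120 and 241 CPM in FFPE. Its difference from FR was 0.80 (adjusted p = 0.0396) in FR > FFPE and -0.13 (adjusted p = 0.747) in FFPE under TMM, and 1.52 and 1.48 under total counts, both past the threshold.

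Under TMM, 6 of the 7 members tested passed in FFPE vs. FR, 1 higher and 5 lower, where 46.2% of the 2281 genes tested were higher and 33.5% lower. All 7 passed in FR > FFPE vs. FR, 2 higher and 5 lower, where 43.8% of genes were higher and 27.5% lower. Between the fixed preparations, FFPE vs. FR > FFPE, 29.9% of genes were higher and 24.0% lower. Nqo1 (-0.84), Gclc (-0.87) and Osgin1 (-0.93) were lower under TMM, but under total counts they were at 0.05, 0.03 and -0.04 and Gclm (1.23), Hmox1 (1.02) and Txnrd1 (0.89) passed as higher. Osgin1 also lost its call without FFPE library 82, the smallest (-0.77, adjusted p = 0.0919).

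Markers of cell types moved in these comparisons too. Of the 4 hepatocyte markers tested in rat liver, 3 fell in FR > FFPE vs. FR and 4 in FFPE vs. FR under TMM, and their sum was 169091 to 230414 CPM in FR, 152028 to 239872 CPM in FR > FFPE and 94798 to 156751 CPM in FFPE. Of 2 cholangiocyte markers, 2 and 1 rose, with a sum of 2.63 to 5.57 CPM in FR, 4.17 to 69.2 CPM in FR > FFPE and 22.5 to 71.7 CPM in FFPE. The part of these cells in the members' differences was not tested.

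In rat lung 9 members had counts and the same 7 were tested, Keap1 having 49 counts, Slc7a11 6 and Srxn1 0. The groups were FR (n = 5, 2013607 to 2505947 counts), FR > FFPE (n = 6, 802686 to 1786809) and tissue held in formalin for 1 year before embedding (n = 6, 226751 to 1634580). Of the 2322 genes tested, 46.3% were higher and 31.2% lower in FR > FFPE vs. FR, where 6 of the 7 members passed (1 higher and 5 lower). In 1-year FFPE vs. FR 44.0% were higher and 31.5% lower, and all 7 members passed (2 higher and 5 lower).

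Nqo1 was at 39.8, 40.3, 42.2, 43.7 and 46.0 CPM in the 5 FR libraries, 123, 180 and 252 CPM in FR > FFPE and 137, 160 and 299 CPM after 1 year, and FR did not overlap with either. It was higher by 1.42 (SE 0.19, edgeR adjusted p = 1.11e-06) and 1.38 (SE 0.19, adjusted p = 1.95e-06) under TMM, and by 2.13 and 2.14 under total counts. Nfe2l2 was at 1319, 1544, 1546, 1595 and 1729 CPM in FR, against 479, 667 and 805 CPM in FR > FFPE and 596, 694 and 928 CPM after 1 year. It was lower, at -1.95 (SE 0.17, adjusted p = 2.67e-09) and -1.79 (SE 0.17, adjusted p = 1.29e-08) under TMM, and at -1.23 and -1.05 under total counts. The transcription factor and its usual reporter gene thus differed in direction in both rat tissues on both scales.

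Hmox1 and Txnrd1 were lower in fixed lung. Hmox1 was at 394, 413, 447, 449 and 502 CPM in FR, 125, 200 and 218 CPM in FR > FFPE and 281, 354 and 392 CPM after 1 year, with differences from FR of -1.998 (edgeR adjusted p = 1.24e-09) and -1.10 (adjusted p = 3.49e-06) under TMM and of -1.28 and -0.36 under total counts, all past the threshold. Txnrd1 was lower, at -1.93 and -1.15 under TMM, and at -1.22 and -0.41 under total counts, where the 1-year value did not pass (adjusted p = 0.131). Gclc was at -0.78 and -0.998 under TMM and at -0.08 and -0.24, without a call, under total counts. Gclm was lower, at -0.80 in FR > FFPE and at -0.54 (adjusted p = 0.0455) after 1 year, a call that was lost with all 18 libraries (adjusted p = 0.0657), without FR replicate 49, 50, 51 or 52 (adjusted p = 0.0697 to 0.0944) and under total counts, where the value was 0.22.

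The 2 fixed lung groups, both run as lysates, shared an input, but prior freezing and the time in formalin cannot be told apart between them. Osgin1 was at 8.31, 14.3 and 26.8 CPM in FR > FFPE and 25.3, 50.6 and 118 CPM after 1 year, higher by 1.70 (SE 0.32, edgeR adjusted p = 0.0007). Hmox1 (0.90, adjusted p = 0.000345) and Txnrd1 (0.78, adjusted p = 0.0165) were higher too, and Nqo1 (-0.05) and Nfe2l2 (0.16) did not pass. In this comparison 13.4% of all genes were higher and 17.6% lower, and the member values hardly moved under total counts (1.81, 0.92 and 0.81 for the 3 that passed). Osgin1 in the 1-year group was also above FR, at 1.64 under TMM and 2.46 under total counts.

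Blood and macrophage markers also differed between the lung groups. The 1 erythroid marker of the table was at 72.3 to 101 CPM in FR, 24.1 to 62.3 CPM in FR > FFPE and 79.4 to 138 CPM after 1 year, and it fell in FR > FFPE vs. FR and rose in the 1-year group against FR > FFPE. The sum of the 3 leukocyte markers detected was 2067 to 3265 CPM in FR, 1088 to 1519 CPM in FR > FFPE and 1764 to 2279 CPM after 1 year, and 2 of the 3 fell and 1 rose in each comparison with FR. That of the 3 macrophage markers detected was 207 to 230 CPM, 88.3 to 149 CPM and 128 to 203 CPM, in the same order. Hmox1 and Txnrd1 were likewise lowest in FR > FFPE, and the part of these cells in them was not tested.

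**Figure D4:**
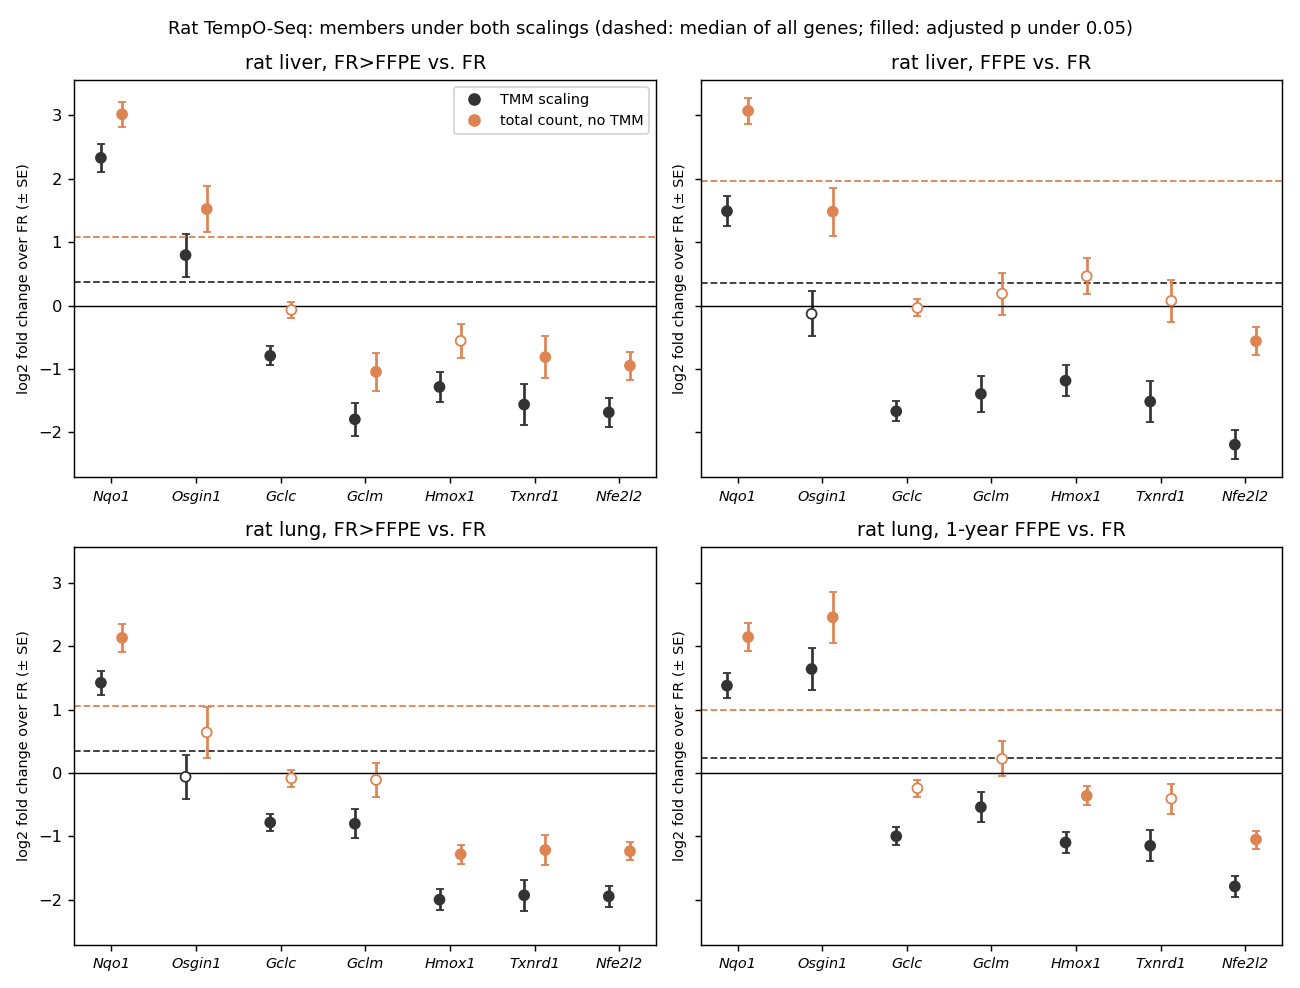
Log2 fold change over FR of 7 members in rat liver and rat lung under TMM scaling (black) and total counts (orange), with bars of 1 SE, filled points where the adjusted p was under 0.05 and dashed lines at the median of all genes. Nqo1 lies above 0 and Nfe2l2 below 0 in all 4 panels under both scalings. Values that change sign include Gclm, Hmox1, Txnrd1 and Osgin1 of directly fixed liver and Gclm of 1-year FFPE lung.

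Of the pathway list 27 genes were tested in the rat. In liver 10 were higher and 9 lower in FR > FFPE vs. FR (43.8% and 27.5% of all genes), and 11 and 13 in FFPE vs. FR (46.2% and 33.5%), with list medians of 0.18 and -0.36 against 0.37 and 0.35 over all genes. In lung 11 and 9 passed in FR > FFPE vs. FR (46.3% and 31.2% of all genes), and 11 and 8 in 1-year FFPE vs. FR (44.0% and 31.5%), with list medians of 0.09 and 0.23 against 0.35 and 0.24. Mafk (5.44, on 10 to 36 counts per FR library) and Maff (5.42, on 1 to 5) led the rises of FFPE rat liver under TMM, and Me1, which supplies NADPH, was lower, at -2.39 and -2.66 in liver and -2.66 and -2.61 in lung. Sod2, the mitochondrial superoxide dismutase, was lower, at -1.46 and -1.93 in liver and -2.16 and -1.67 in lung. These counts and values are under TMM alone, and the list was not recounted under total counts. In CPM, which is scaled by total counts, the falls of Sod2 and Me1 in FFPE rat liver were smaller. Median Sod2 was 319 CPM in FR and 241 CPM in FFPE, and the groups overlapped. Median Me1 was 260 CPM in FR and 131 CPM in FFPE, without overlap.

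The AML12 comparison asked whether a short contact with formalin changed these genes in cultured cells. Of the 10 members, 9 passed the filter, Nqo1 having 22 counts in all. Totals were 444288 to 2325990 counts, so low members rested on few counts. Gclc rose at 0.1% formalin and was the only member that passed at any dose. It was at 50.5, 61.6 and 67.3 CPM in the 3 vehicle libraries and at 106, 112 and 118 CPM at 0.1%, which is 0.68 on the log2 scale (SE 0.19, edgeR adjusted p = 0.0192) under TMM and 0.87 (adjusted p = 0.00399) under total counts.

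At the lower doses Gclc was at 92.3, 96.8 and 99.0 CPM (0.006%) and 69.5, 88.9 and 105 CPM (0.03%). Every exposed library was above every vehicle library, but the differences of 0.61 (adjusted p = 1) and 0.48 (adjusted p = 0.974) did not pass over all genes. By edgeR 0% of the 1570 genes tested were called at 0.006% and 0% at 0.03%, where 28 and 62 genes had an unadjusted p under 0.05, and at 0.1% 10.7% were higher and 8.60% lower. The call of Gclc at 0.1% was lost when vehicle library 87 or 90 or exposed library 95 or 96 was left out.

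Slc7a11, nearly absent from mouse liver, had 4 to 40 counts in AML12 libraries. It was at 7.48, 9.73 and 14.9 CPM in vehicle, 16.7, 20.3 and 22.6 CPM at 0.006%, 14.8, 17.2 and 17.8 CPM at 0.03% and 14.8, 17.2 and 24.2 CPM at 0.1%, with log2 differences of 0.71, 0.52 and 0.51 that did not pass. Hmox1 was at 2.16, 5.40 and 7.48 CPM in vehicle and 9.03, 9.53 and 9.66 CPM at 0.1% (13 to 21 counts), a difference of 0.88 (adjusted p = 0.188). Keap1, at 278, 287 and 292 CPM in vehicle and 337, 360 and 383 CPM at 0.1%, did not overlap either and differed by 0.13 after TMM scaling (adjusted p = 0.629). Gclm was at 0.40 (adjusted p = 0.21), Txnrd1 at 0.36, Nfe2l2 at 0.20, Osgin1 at -0.21 and Srxn1 at -0.29. Of 27 pathway genes tested, none passed at the lower doses, and at 0.1% Cat, catalase, rose (0.67, adjusted p = 0.0432) while 5 fell, the largest falls being Gsta1 (-0.96), Gstp1 (-0.86) and Gpx4 (-0.74).

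**Figure D5:**
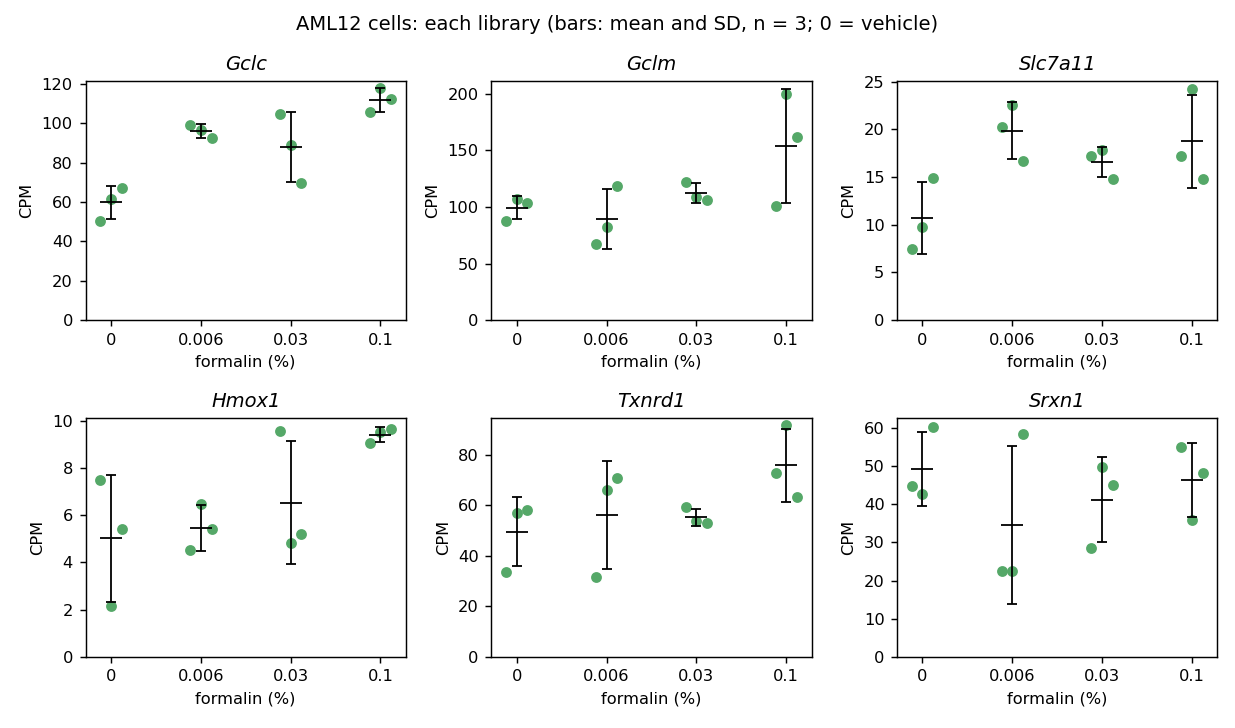
CPM (linear axes from 0) of 6 members in AML12 cells by formalin concentration in percent, 1 point per lysate with bars for the mean and SD of 3. Gclc lies at 50.5 to 67.3 CPM in vehicle and at 106 to 118 CPM at 0.1%, and the groups of Srxn1 overlap.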

How the data were processed

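Mouse liver RNA was sequenced as stranded total RNA after removal of ribosomal RNA. Per the labels and the methods, the authors aligned reads with STAR 2.5.3a to GRCm38 and deposited estimated counts per RefSeq gene from an expectation-maximisation step. Of these counts, 92.0% were exactly whole as deposited. They also deposited log2 CPM, for which the methods name the library size as divisor. Its values were recovered from the deposited counts and log2 CPM and are called total reads here. The rat and AML12 tables were deposited by the authors as raw counts of TempO-Seq probes; the aligner and probe set are not given in the sources used here.

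Estimated counts were rounded. In mouse liver, edgeR 4.0.16 (quasi-likelihood test, Benjamini-Hochberg adjustment over all genes) was fitted to 8 group means over 48 libraries, for genes with a geometric mean above 1 count (offset 1e-04), with the total of the kept genes as library size and no further scaling. That fit treats the 4 libraries of a mouse as independent, and the effect on the p-values of PB vs. Con was not tested. A gene passed at an adjusted p under 0.05. A comparison of preparations counted a gene only where it passed in Con and in PB in the same direction. Rat and AML12 tables were fitted separately with TMM scaling and filterByExpr, leaving out rat lung libraries under 1000 counts. SE is the log2 fold change over the square root of F. Every adjusted p in the text is from edgeR's quasi-likelihood test unless DESeq2 (1.42.0) or limma (3.58.1) is named. The edgeR fit was tried first on simulated data, for some comparisons of each count table. The interactions, the mouse block, the lane terms, DESeq2 and limma were not tried in this way.

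The members and gene lists were chosen with earlier results of these data known. Pathway genes named in the text are those with the largest changes among those that passed, up to 3 in each direction, and like genes are the 3 with the highest Pearson correlation of log2 CPM. Gene positions are those deposited with the mouse liver counts, and the exon lengths for values per kilobase are from GENCODE M21 on GRCm38.

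Samples were grouped by the labels. Preparations of the same mouse carry its number, and 72 of 72 correlations between the residuals of same-mouse libraries were over 0.1 (0.238 to 0.642). No 2 libraries of a group agreed within sampling noise. Alternatives were other scalings, tools and filters, the mouse as a block, lane terms, a fold of at least 2, and leaving out each library in turn in groups of 3 and 5 as well as 2 single libraries of low total. The lane term for PB vs. Con, the rat lung libraries left out and those 2 were chosen after seeing the data.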

Additional observations from a re-analysis of the deposited data

Results flagged for a closer look

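Among 114 groups of 4 to 10 libraries, 8 held a member value that stood apart from the rest of its group by Dixon's criterion, where chance gives about 1 in 20 groups. Of these 8, 4 were Hmox1 in mouse liver. Mouse 20B was far above the other PB mice in FR (26.3 CPM, next 17.4), in FR > FFPE (26.1, next 16.6) and in FFPE (26.3, next 13.8), and Con mouse 90C stood apart in FR > FFPE (18.2, next 14.7). Mouse 20B also had the highest sum of macrophage markers in these PB groups, and the part of those cells was not tested.

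Txnrd1 of Con mouse 8C in FR > OH was 156 CPM (next 141). Osgin1 of PB mouse 75C in FFPE was 376 CPM (next 287). In directly fixed rat liver, Hmox1 of library 82 was 237 CPM (next 142) on 33 counts, and Osgin1 of library 84 was 241 CPM (next 132) on 79 counts.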

How the results depend on the processing

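The larger moves in the number of members that passed were these, and in 31 further cases it moved by 1 or 2. In PB vs. Con of FR, limma and the lane term, which was fitted to fewer libraries, each left 1 in place of 3. In FR > FFPE, TMM, DESeq2, total reads and limma each left 3 in place of 5, and in FR > OH the lane term left 1 in place of 4. A fold of at least 2 left 2 in FR > FFPE, 1 in FR > OH and 0 in FFPE, and 0 in each comparison of mouse preparations with FR and in FFPE vs. FR > FFPE, 0 in rat liver FFPE vs. FR > FFPE, 1 in rat lung 1-year FFPE vs. FR > FFPE and 0 in AML12 at 0.1%. Total reads and limma gave 8 in FFPE vs. FR, 1 in FR > FFPE vs. FR and 8 in FFPE vs. FR > FFPE. Without TMM, rat liver FFPE vs. FR had 3 and rat lung 1-year FFPE vs. FR had 4. Leaving out 1 AML12 library gave 0 to 2 at 0.1%. The causes were not tested beyond the divisor itself.

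With the mouse as a replicate block, 6 members passed in FFPE vs. FR, 6 in FR > FFPE vs. FR, 5 in FR > OH vs. FR, 2 in FFPE vs. FR > FFPE and 2 in FR > FFPE vs. FR > OH. The block added 25 member values to those that passed and removed 0. PB and Con are different mice, so no paired analysis was possible there. The interactions with preparation had 0 members that passed with and without the block.

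These directions reversed, in Con and PB. FFPE vs. FR under total reads gave Txnrd1 -0.85 and -0.82, Srxn1 -0.55 and -0.67, Nfe2l2 -0.76 and -0.75, Keap1 -0.48 and -0.52 and Osgin1 -0.25 (Con), and limma gave -0.86 and -0.82, -0.55 and -0.66, -0.78 and -0.77, -0.48 and -0.54 and -0.25. FR > FFPE vs. FR gave Gclm -0.22 and -0.20 and Txnrd1 -0.070 and -0.068 under TMM, and -0.22, -0.21, -0.070 and -0.073 with DESeq2. Total reads gave Gclm -0.32 and -0.25, Txnrd1 -0.16 and -0.12, Srxn1 -0.010 (PB), Nfe2l2 -0.0054 (PB) and Keap1 -0.033 (Con), and limma Gclm -0.33 and -0.25, Txnrd1 -0.18 and -0.12, Nfe2l2 -0.014 (PB) and Keap1 -0.037 (Con). FR > OH vs. FR gave Gclm in PB -0.18 (TMM), -0.19 (DESeq2), -0.29 (total reads) and -0.29 (limma), and Txnrd1 in Con -0.10 (total reads) and -0.11 (limma). FFPE vs. FR > FFPE under total reads gave Srxn1 -0.45 (Con), Keap1 -0.44 and -0.54 and Osgin1 -0.55 and -0.45, and limma -0.43, -0.44 and -0.55, and -0.54 and -0.45. Without TMM, rat liver FFPE vs. FR gave Gclm 0.19, Hmox1 0.46, Txnrd1 0.076 and Osgin1 1.48, FFPE vs. FR > FFPE gave Nqo1 0.054 and Gclc 0.033, and rat lung 1-year FFPE vs. FR gave Gclm 0.22.

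Nqo1 (4 to 94 counts in mouse liver), AML12 Hmox1 and Slc7a11, and the smallest fixed rat libraries are limited by depth.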
